A study of Mus musculus with 10 samples.

Results

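The genes described here encode the proteasome and its regulators: every gene whose only symbol in the array's annotation begins with Psm, a letter from a to g and a number. The pattern matched 49 of the 22180 genes measured. Of these, 47 are subunits, assembly factors, activators or inhibitors of the proteasome. Psmc3ip, a meiotic recombination factor, matched by name alone, and Psme3ip1 encodes a binding partner of the activator Psme3. Both are described apart. Psma4 has no value here, because its probe sets also name a second gene.

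The proteasome is the protease that degrades proteins tagged with ubiquitin. Its core particle is a barrel of alpha rings that gate the entrance and beta rings that hold the catalytic sites. The regulatory particle that caps the barrel has a base, whose ATPases unfold the substrate, and a lid, which removes the ubiquitin. Lymphocytes exchange the constitutive catalytic subunits for inducible ones and so build the immunoproteasome, whose peptides feed class I antigen presentation.

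Messenger RNA was measured in regulatory T (Treg) cells, the CD4 T cells that carry Foxp3 and restrain immune responses. They had been sorted out of mouse chimeras built with mixed bone marrow, and no culture step preceded lysis. There were 5 arrays of wild type (WT) cells and 5 arrays of cells lacking LKB1, the protein kinase encoded by Stk11. The Cre driver, the strain, the age and the number of animals behind each sample are not stated in the labels. In such bulk samples fewer cells of a type and less RNA per cell cannot be told apart.

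Levels are log2 signals, and differences are LKB1-deficient minus WT on the same scale, so that -1 stands for a halved signal. Arrays correlated over genes at r = 0.991 to 0.993 within WT and 0.969 to 0.989 within the LKB1-deficient group. Stk11 itself differed by -0.36 (limma adjusted p = 0.335, not called), with WT at 6.78 ± 0.15 and the LKB1-deficient arrays at 6.42 ± 0.37 (both SD, n = 5). Its signals were 6.57, 6.01, 6.05, 6.71 and 6.78 on LKB1-deficient arrays 1 to 5, against 6.61 to 6.95 on WT arrays. LKB1-deficient arrays 4 and 5 thus lay within the WT range, and array 1 just below it. The macrophage and myeloid list lay at 6.71 to 7.09 on WT arrays and at 7.40, 6.76, 7.05, 9.47 and 9.57 on LKB1-deficient arrays 1 to 5, with 15 of 15 markers positive in difference and none called. The B and plasma cell list lay at 4.79 to 5.26 on WT arrays and at 6.29, 4.93, 5.07, 5.82 and 6.002 on LKB1-deficient arrays 1 to 5, with 11 of 11 positive and none called. The natural killer list lay at 4.35 to 4.47 and at 5.53, 4.46, 4.65, 4.95 and 5.16, with 8 of 8 positive and 1 called. The CD8 T list lay at 6.38 to 6.71 on WT arrays and at 7.18, 6.97, 6.88, 6.98 and 6.92 on LKB1-deficient arrays 1 to 5. Both of its markers were positive and 1 was called. The called ones, Klrd1 (1.53, adjusted p = 0.0170) and Cd8a (0.77, adjusted p = 0.0423), stayed past the threshold in 9 and 3 of the 10 fits with 1 array left out (adjusted p up to 0.0628 and 0.113). Both erythroid markers measured were positive and not called, with list means of 4.21 to 4.63 on all arrays. T cell and Treg identity markers had list means of 10.86 to 10.92 on WT arrays and of 10.44, 10.95, 10.99, 10.75 and 10.68 on LKB1-deficient arrays 1 to 5. In that list 10 of 12 differences were negative, 2 positive and 0 called, with a median of -0.14. The groups did not overlap in 2 of its genes, Zap70 (-0.28) and Cd3d (-0.21), both lower. Such non-overlap was found in 3.71% of all genes and in 10.5% of those with a mean signal of 7 or more. The list was bright on every array, and Treg markers in it were lowest on LKB1-deficient array 1. There Foxp3 was at 9.86 (WT 10.95 to 11.19) and Il2ra at 10.27 (WT 11.01 to 11.09). Ikzf2 was at 9.31 there (WT 10.12 to 10.28), Ctla4 at 9.08 (WT 9.65 to 9.94) and Cd4 at 9.86 (WT 9.90 to 10.08). On LKB1-deficient arrays 2 to 5 Foxp3 was at 11.10 to 11.50. Il2ra was at 11.23, 11.33, 10.80 and 10.81 on LKB1-deficient arrays 2 to 5, and Ctla4 at 9.98, 9.93, 9.54 and 9.56. Both were thus below the WT range on arrays 4 and 5 as well. The part of these cell types in the values below was not tested, except by the fits without arrays 1, 4 and 5 and with the macrophage and B cell means as covariates.

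Proteasome transcripts had small negative differences nearly throughout, and none was called. Of the 47 genes, 44 (93.6%) had a negative difference and 3 a positive one, with a median of -0.20 and a range from -0.60 to 0.14. Over all 22180 genes 49.2% were negative and the median was 0.0034. At an adjusted p under 0.05, 0 members were higher and 0 lower, against 0.234% of all genes higher, 0.83% lower and 1.06% in either direction. At an unadjusted p under 0.05 limma gave 19 members lower (40.4%) and 0 higher, against 8.8% and 5.19% of all genes. That count of 19 was 7 without WT array 1 and 10 without WT array 3, and it was 9 without LKB1-deficient arrays 1, 4 and 5 and also 9 with the macrophage and B cell marker means as covariates. The groups did not overlap in 6 members, all lower (12.8%), against 3.71% of all genes lower and 0.996% higher.

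**Figure D1:**
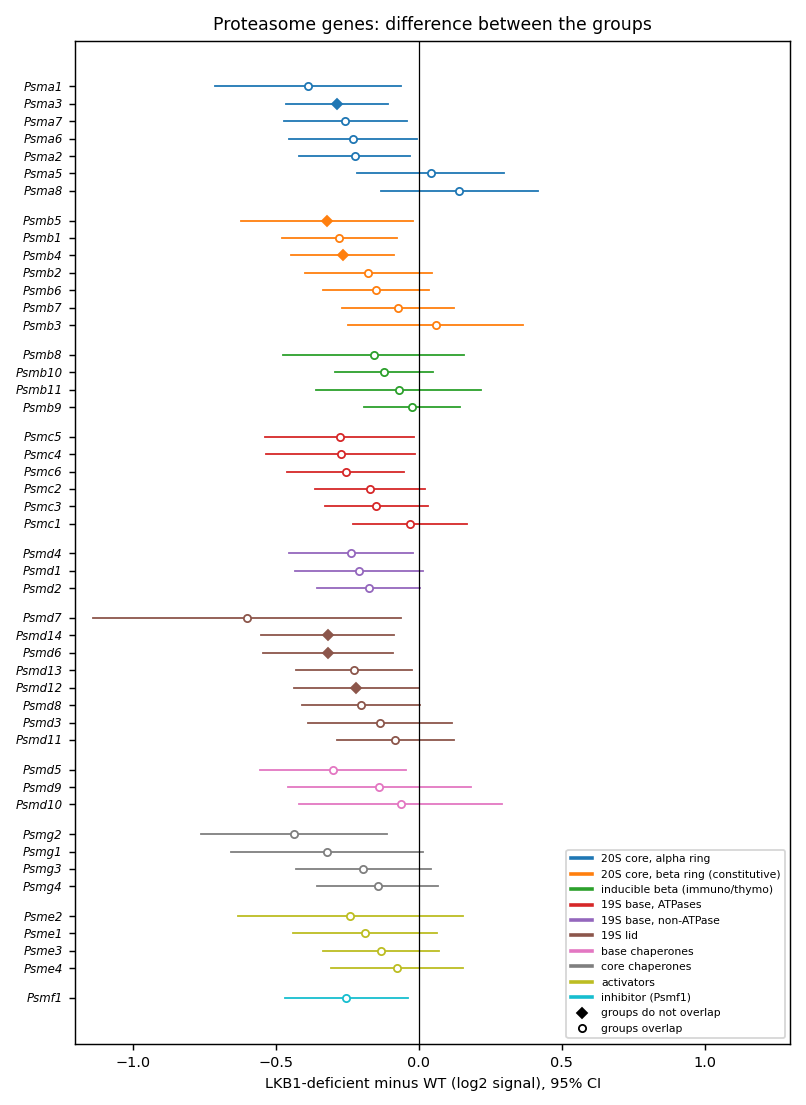
Difference between the groups (LKB1-deficient minus WT, log2 signal) for the 47 proteasome genes, ordered by role, with 95% confidence intervals of the limma fit. Points lie left of 0 in 44 of 47 genes, and filled diamonds mark the 6 genes whose arrays did not overlap between the groups.

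Bright genes as a whole leaned the same way, which bears on these counts. Of the 5463 genes with a mean log2 signal of 7 or more, a level chosen after the values were seen, 70.3% were negative, with a median difference of -0.095. All 41 proteasome genes at that level were negative, with a median of -0.22. An unadjusted p under 0.05 with a negative sign was found in 43.9% of these 41 and in 20% of the 5463. Non-overlap below WT was found in 14.6% of the 41 and in 10.5% of the 5463, so that share is close to that of other bright genes. The proteasome genes between 9 and 10 had a median of -0.23 (14 genes), against -0.091 for the 800 genes of that level.

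**Figure D2:**
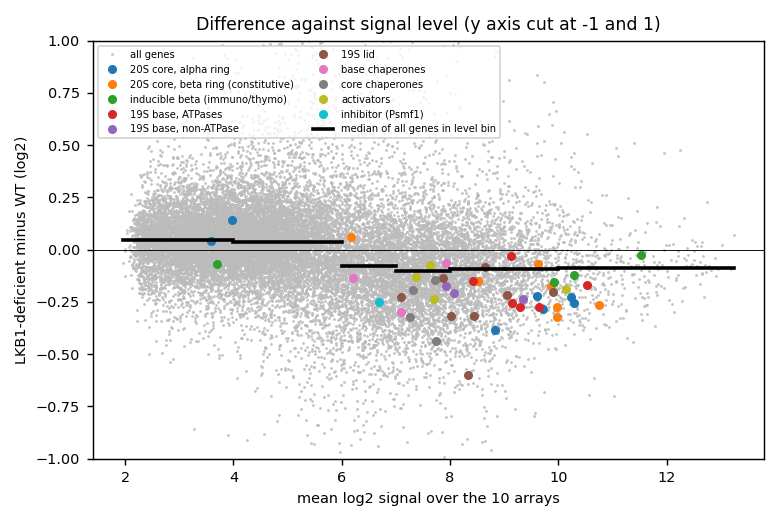
Difference between the groups (log2) against mean log2 signal over the 10 arrays, for all 22180 genes in grey and the 47 proteasome genes coloured by role, with the vertical axis limited to -1 and 1. Black lines give the median of all genes in each level bin, which is positive below a signal of 6 and negative above it, and 41 of 41 proteasome genes at 7 or more lie below 0.

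The negative differences were present on each LKB1-deficient array, to unequal degrees. Relative to each gene's WT mean, the median over the 47 genes was -0.36, -0.18, -0.12, -0.22 and -0.10 on LKB1-deficient arrays 1 to 5. Below all 5 WT arrays lay 35, 32, 22, 36 and 19 of the 47 genes, against 28.5%, 24.7%, 20.7%, 24.7% and 26.2% of all genes. As shares of the 47 these were 74.5%, 68.1%, 46.8%, 76.6% and 40.4%, against 59.6%, 37.4%, 34.6%, 42.9% and 40.1% of the genes with a mean signal of 7 or more, and on array 5 the 2 shares were close. Array 1 was the farthest from WT by the median, array 4 had the most genes below all WT arrays, and array 1 was the lowest of its group in 25 of the 47 genes. It also had the highest B cell and natural killer marker means and the lowest T cell identity mean, and bright genes had a median of -0.22 on it. Arrays 2 and 3, whose macrophage and B cell means lay within the WT range, had 32 and 22 genes below all WT arrays. Their CD8 T marker means (6.97 and 6.88) lay above the WT range of 6.38 to 6.71. The natural killer mean of array 3 (4.65) was above the WT range too. In the fit without arrays 1, 4 and 5 the median over the members was -0.14, with 43 of 47 negative and 0 called. With the marker means as covariates it was -0.16, with 42 negative and 0 called. Without array 1 alone it was -0.16, with 44 negative. The sample codes in the descriptions form a series of 6 samples (replicates 1 to 3 of both groups) and one of 4, and their meaning is not stated. Within the first set the median was -0.26 with 44 negative, and within the second -0.13 with 39 negative.

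**Figure D3:**
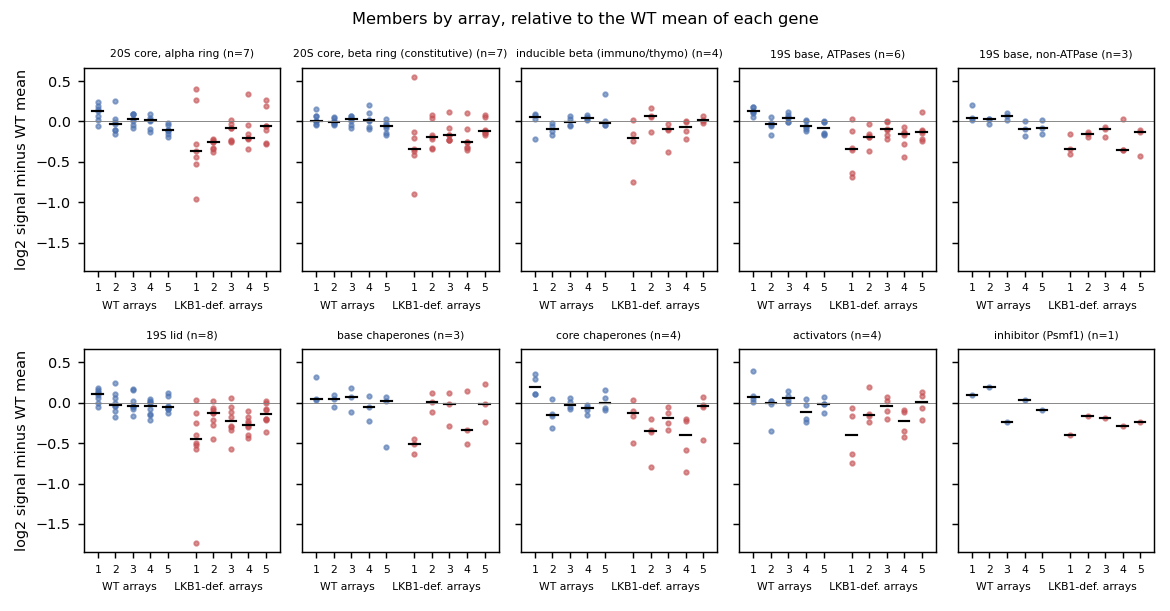
Log2 signal of each proteasome gene minus its WT mean, by role group, on WT arrays 1 to 5 (blue) and LKB1-deficient arrays 1 to 5 (red), with the median of the group as a black bar. LKB1-deficient array 1 has the lowest bar of its group in the core alpha, core beta, inducible, ATPase, lid, base chaperone, activator and inhibitor panels.

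In the alpha ring of the core particle, 5 of 7 genes had negative differences, 0 were called, and the median was -0.23. Psma3, a structural ring subunit, had the smallest p of this ring. Its log2 signals were 9.93, 9.76, 9.96, 9.91 and 9.76 on WT arrays 1 to 5 and 9.49, 9.52, 9.62, 9.66 and 9.58 on LKB1-deficient arrays 1 to 5. Every LKB1-deficient array lay below every WT array. The difference was -0.28 (SE 0.08, adjusted p = 0.134), or 1.22-fold. Psma1 (-0.39), Psma7 (-0.26), Psma6 (-0.23) and Psma2 (-0.22) lay between adjusted p of 0.258 and 0.347. The 2 positive ones were dim. Psma8, the subunit that replaces an alpha subunit in the testis, was at a mean of 3.90 in WT, and Psma5, at 3.56, was that dim on both of its probe sets. Psma5 is a constitutive part of every core particle, and at this signal its probe sets cannot be told from background.

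In the constitutive beta ring 6 of 7 genes had negative differences, 0 were called, and the median was -0.18. Psmb4, a structural subunit with no catalytic site, had the smallest p of the ring. Its signals were 10.95, 10.85, 10.92, 10.90 and 10.80 on the WT arrays, against 10.51, 10.56, 10.72, 10.56 and 10.74 on the LKB1-deficient arrays. The groups did not overlap, and the difference was -0.26 (SE 0.08, adjusted p = 0.164). Psmb4 was also the only member that any of the alternative fits called, at an adjusted p of 0.0495 with a trended robust prior. Psmb1 (-0.28) and Psmb2 (-0.18), further subunits with no catalytic site, had adjusted p of 0.186 and 0.484. Psmb3 (0.06) was positive through LKB1-deficient array 1 at 6.68, while the remaining arrays of that group lay at 5.90 to 6.24 against 5.99 to 6.34 in WT, and without array 1 its difference was -0.06.

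The catalytic sites of the beta ring come in constitutive and inducible versions, and each pair is given together. Psmb5 carries the chymotrypsin-like site of the standard core. Its signals were 10.11, 10.10, 10.17, 10.15 and 10.17 on WT arrays 1 to 5 and 9.24, 9.92, 9.91, 10.05 and 9.97 on LKB1-deficient arrays 1 to 5. All LKB1-deficient arrays were below the lowest WT array, array 1 by far the most. The difference was -0.32 (SE 0.14, adjusted p = 0.320) and -0.18 without array 1. Its inducible counterpart Psmb8 was at 10.09, 9.84, 10.08, 10.06 and 9.96 on the WT arrays and at 9.25, 10.06, 9.90, 10.01 and 10.02 on the LKB1-deficient arrays. Here 4 of the 5 LKB1-deficient arrays lay within the WT range. The difference was -0.16 (SE 0.15, adjusted p = 0.688).

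Psmb6 carries the caspase-like site, and was at 8.60, 8.59, 8.54, 8.69 and 8.54 on WT arrays, against 8.39, 8.43, 8.43, 8.34 and 8.64 on LKB1-deficient arrays. Of these, 4 lay below the WT range and array 5 within it, with a difference of -0.15 (SE 0.09, adjusted p = 0.481). Its inducible counterpart Psmb9 was at 11.57, 11.52, 11.57, 11.56 and 11.50 on WT arrays, against 11.39, 11.62, 11.51, 11.53 and 11.55 on LKB1-deficient arrays. The difference of -0.02 (95% confidence interval -0.19 to 0.14, adjusted p = 0.928) does not show that its level was the same. Psmb7 and its inducible counterpart Psmb10 hold the trypsin-like site. Psmb7 was at 9.62, 9.64, 9.73, 9.69 and 9.65 on WT arrays, against 9.53, 9.71, 9.78, 9.41 and 9.54 on LKB1-deficient arrays, a difference of -0.07 (SE 0.09, adjusted p = 0.781). Psmb10 was at 10.43, 10.30, 10.31, 10.38 and 10.36 on WT arrays, against 10.11, 10.23, 10.26, 10.23 and 10.34 on LKB1-deficient arrays, a difference of -0.12 (SE 0.08, adjusted p = 0.539). On 4 of the 5 LKB1-deficient arrays Psmb10 lay below the WT range. Psmb11, the catalytic subunit of the thymic cortex, was dim at 3.72 in WT and had a difference of -0.07. The 4 inducible genes together had a median of -0.096, and 0 were called.

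The inducible subunit minus its constitutive counterpart, taken within each array, shows whether the pair changed unequally between the groups. For Psmb8 minus Psmb5 these values were -0.02, -0.26, -0.09, -0.09 and -0.21 on WT arrays 1 to 5. On LKB1-deficient arrays 1 to 5 they were 0.02, 0.14, -0.01, -0.04 and 0.05, of which 4 lay above all WT arrays. The shift toward Psmb8 was 0.16 (exact two-sided permutation test over 252 splits, p = 0.0159, adjusted p = 0.0476 over the 3 pairs). For Psmb9 minus Psmb6 the shift was 0.12 (p = 0.0952, adjusted p = 0.143, same exact test), and for Psmb10 minus Psmb7 it was -0.05 (p = 0.532, adjusted p = 0.532, same exact test). The smallest p that this design allows is 0.00794. The call for Psmb8 and Psmb5 ended when WT array 2 or 5 or LKB1-deficient array 1, 2 or 3 was left out (adjusted p of the exact test 0.0714 to 0.119), with shifts of 0.13 to 0.17.

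**Figure D4:**
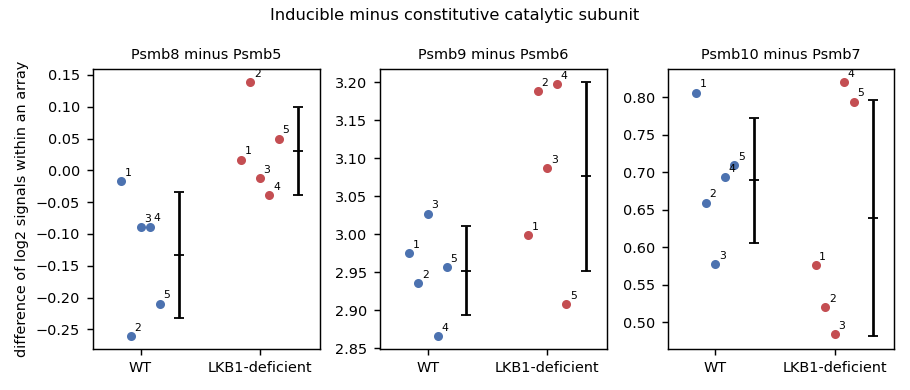
Inducible minus constitutive catalytic subunit (log2 signals subtracted within an array) for the 3 pairs, with each array as a numbered point and the group mean with its SD as a bar. For Psmb8 minus Psmb5, LKB1-deficient arrays lie at -0.04 to 0.14 and WT arrays at -0.26 to -0.02, and for Psmb10 minus Psmb7 the groups overlap.

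Promoter sequence is shown for Psmb5, Psmb6, Psmb8 and, from the lid, Psmd12. They were picked because they hold a match to elements known from proteasome or interferon-responsive promoters. The sequences are RefSeq's on GRCm38.p6, 5′ to 3′ on the gene's strand and upstream of the start, at chr14:54617999-54618077 (minus strand), chr11:70525313-70525356 (plus), chr17:34198063-34198141 (plus) and chr11:107479278-107479324 (plus). Capitals mark the match, TGACNNNGC of the antioxidant response element in Psmb5, Psmb6 and, on the opposite strand, Psmd12, and TTCNNNGAA, the STAT site, in Psmb8.
Psmb5: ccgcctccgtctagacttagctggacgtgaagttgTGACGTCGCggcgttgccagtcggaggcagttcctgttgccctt
Psmb6: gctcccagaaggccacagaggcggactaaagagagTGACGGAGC
Psmb8: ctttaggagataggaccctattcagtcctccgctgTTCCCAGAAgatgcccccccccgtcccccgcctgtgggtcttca
Psmd12: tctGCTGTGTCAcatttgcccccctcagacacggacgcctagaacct

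Windows of 250 bases before to 50 after the start were present for 39 of the 47 genes, 42 windows in all, and both strands were searched. TGACNNNGC stood in 6 of the 42 windows (14.3%) and in 12.4% of all 32851 windows, so its share among these genes was close to that of promoters in general. The 6 belong to Psmb5, Psmb6, Psmc6, Psmd9, Psmd12 and Psme4. TTCNNNGAA stood in 7.14% of the members' windows and 8.3% of all. The core of the interferon-stimulated response element stood in 11.9% (5 windows, Psmb3, Psmd4, Psmd9, Psme1 and Psmg4) and 3.44%. It stood in 0 of the 4 windows of the inducible beta genes. CCAAT, the box bound by NF-Y, stood in 33.3% and 37.4%, and in 5 of the 7 alpha ring windows. Among the 39 matches in the members' windows, 0 overlapped a match to a different motif. Of the other catalytic genes of the pairs, Psmb9 had a match to CCAAT alone, Psmb10 had no match, and Psmb7 had no window. A match describes the letters of the window only.

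All 17 genes of the regulatory particle had negative differences, with a median of -0.22, and 0 were called. In the base, the 6 ATPases had a median of -0.21. Psmc6 had the smallest p among them, with signals of 9.39, 9.33, 9.39, 9.16 and 9.10 on WT arrays, against 8.92, 8.90, 9.11, 9.11 and 9.06 on LKB1-deficient arrays. LKB1-deficient arrays 3 and 4 lay just above the lowest WT array, and the difference was -0.26 (SE 0.09, adjusted p = 0.233). Psmc5 (-0.28) and Psmc4 (-0.27) had adjusted p of 0.327 and 0.333, Psmc2 (-0.17) and Psmc3 (-0.15) of 0.425 and 0.464. Psmc1, at -0.03 (95% confidence interval -0.23 to 0.17), was the ATPase nearest 0, and its sign turned in several alternatives.

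The 3 base subunits without ATPase activity were at -0.24 (Psmd4), -0.21 (Psmd1) and -0.17 (Psmd2). Psmd1 and Psmd2 are the large scaffolds of the base, and Psmd4 is a ubiquitin receptor. Psmd4 was at 9.48, 9.49, 9.48, 9.46 and 9.38 on WT arrays, against 9.05, 9.27, 9.27, 9.50 and 9.03 on LKB1-deficient arrays. LKB1-deficient array 4 was above all WT arrays and the other four were below them (difference SE 0.10, adjusted p = 0.307).

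All 8 lid genes were negative, from -0.60 to -0.08, with a median of -0.22 and 0 called. Psmd6, a scaffold subunit, was at 8.70, 8.49, 8.76, 8.53 and 8.53 on WT arrays, against 8.35, 8.48, 8.03, 8.16 and 8.39 on LKB1-deficient arrays, a difference of -0.32 (SE 0.11, adjusted p = 0.184). Psmd14, the deubiquitinase that cuts ubiquitin chains from the substrate, was at 8.35, 7.99, 8.34, 8.03 and 8.13 on WT arrays, against 7.60, 7.89, 7.88, 7.92 and 7.97 on LKB1-deficient arrays. The difference was also -0.32 (SE 0.11, adjusted p = 0.193). In both genes every LKB1-deficient array lay below every WT array, by a narrow margin between the nearest arrays. Psmd12, another scaffold, did not overlap either, at 9.32, 9.12, 9.11, 9.19 and 9.08 on WT arrays, against 8.64, 9.03, 9.05, 9.06 and 8.95 on LKB1-deficient arrays, with a difference of -0.22 (SE 0.10, adjusted p = 0.360). Psmd12 and Psmd14 are shown for this lack of overlap, after their values were seen.

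Psmd7, the dimer partner of Psmd14, had the largest estimate of all members and is shown for that reason. Its signals were 8.77, 8.59, 8.65, 8.64 and 8.51 on WT arrays 1 to 5 and 6.90, 8.18, 8.58, 8.23 and 8.26 on LKB1-deficient arrays 1 to 5. Array 1 stood 1.73 below the WT mean, arrays 2, 4 and 5 were below the WT range by less, and array 3 was inside it. The difference was -0.60 (SE 0.25, 95% confidence interval -1.14 to -0.06, adjusted p = 0.294), a 1.52-fold lower signal. Without array 1 it was -0.32 (SE 0.10, adjusted p = 0.145). Psmd13 (-0.22), Psmd8 (-0.20), Psmd3 (-0.13) and Psmd11 (-0.08) made up the rest of the lid, at adjusted p of 0.299 to 0.759.

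Assembly factors were negative in 7 of 7 genes, and 0 were called. The 4 chaperones of the core particle had a median of -0.26. Psmg2, which with Psmg1 holds the alpha ring during assembly, was at 8.32, 7.65, 8.02, 7.91 and 7.90 on WT arrays, against 7.87, 7.17, 7.72, 7.38 and 7.50 on LKB1-deficient arrays. WT array 2 lay inside the LKB1-deficient range, and the difference was -0.44 (SE 0.15, adjusted p = 0.201). Its second, dimmer probe set had a difference of -0.45 (SE 0.12, adjusted p = 0.0970 when every probe set was tested on its own). Psmg1 was at -0.32, Psmg3 at -0.19 and Psmg4 at -0.14. Of the chaperones of the base, Psmd5 was at 7.29, 7.28, 7.31, 7.01 and 7.31 on WT arrays, against 6.603, 7.25, 6.95, 6.91 and 6.997 on LKB1-deficient arrays. Its difference was -0.30 (SE 0.12, adjusted p = 0.270), with WT array 4 and LKB1-deficient array 2 in the range of the opposite group. Psmd9 (-0.14) and Psmd10, also known as gankyrin (-0.06), were less separated, at adjusted p of 0.735 and 0.910.

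The activators, which open the core without ATP, had 4 of 4 negative differences and a median of -0.16, with 0 called. Psme1, which with Psme2 forms the interferon-inducible activator ring, was at 10.28, 10.21, 10.23, 10.20 and 10.22 on WT arrays, against 9.60, 10.07, 10.25, 10.12 and 10.17 on LKB1-deficient arrays. WT arrays were tightly grouped and 4 LKB1-deficient arrays lay below them (-0.19, SE 0.12, adjusted p = 0.516). Psme2 was at 8.22, 7.47, 7.91, 7.62 and 7.89 on WT arrays, against 7.08, 7.59, 7.89, 7.40 and 7.96 on LKB1-deficient arrays, so that the groups overlapped widely (-0.24, SE 0.18, adjusted p = 0.608).

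Psme3, the nuclear activator, was at 7.45, 7.47, 7.48, 7.49 and 7.31 on WT arrays, against 7.27, 7.31, 7.34, 7.09 and 7.52 on LKB1-deficient arrays (-0.13, SE 0.09, adjusted p = 0.579). Psme4, the large activator PA200, was at 7.76, 7.69, 7.82, 7.43 and 7.65 on WT arrays, against 7.61, 7.86, 7.47, 7.58 and 7.45 on LKB1-deficient arrays (-0.08, SE 0.11, adjusted p = 0.807). In both genes LKB1-deficient arrays lay on either side of the WT mean. The proteasome inhibitor and transport adaptor Psmf1 was at 6.90, 7.0003, 6.57, 6.85 and 6.72 on WT arrays, against 6.41, 6.65, 6.63, 6.53 and 6.57 on LKB1-deficient arrays. It differed by -0.25 (SE 0.10, adjusted p = 0.267), with WT array 3 in the LKB1-deficient range. Psme3ip1 had a difference of -0.17 (adjusted p = 0.472) and Psmc3ip of -0.04 (adjusted p = 0.900).

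Genes outside the symbol pattern were described from a list of further subunits and of genes related to the proteasome, of which 14 of 19 entries were measured. Not all of them are part of the proteasome: Ubxn1, Mafg, Nfe2l1 and Nfe2l2, for example, encode no subunit. In that list 13 differences were negative, the median was -0.14 and 0 were called. Sem1, the small lid subunit, had means of 10.96 ± 0.030 (WT) and 10.77 ± 0.11 (LKB1-deficient; both SD, n = 5), without overlap (-0.19, adjusted p = 0.316). Pomp, the maturation factor of the core, was at -0.24 (adjusted p = 0.464), Ubxn1 at -0.25 (0.374) and Mafg at -0.23 (0.390). Nfe2l1, the transcription factor that raises proteasome genes when proteasome activity falls short, was at -0.19 (adjusted p = 0.557), and its relative Nfe2l2 at 0.13 (0.584). A list of ubiquitin-activating and conjugating enzymes, ubiquitin ligases, shuttles and Vcp with its partners had 15 of 24 entries measured. In it 14 differences were negative, the median was -0.12 and 0 were called. Rad23b, which carries ubiquitinated proteins to the proteasome, had means of 8.61 ± 0.11 (WT) and 8.25 ± 0.25 (LKB1-deficient; both SD, n = 5) (-0.36, adjusted p = 0.195), and Ubqln2, another shuttle, at -0.23 (0.404).

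Class I presentation and interferon genes, which share inducers with the immunoproteasome, were mixed, with 10 of 19 positive, a median of 0.050, 1 called higher and 0 lower. The 1 called gene was Ifngr1, a chain of the interferon gamma receptor, which rose by 1.246 (SE 0.22, adjusted p = 0.0247). It stayed past the threshold in 2 of the 10 fits with 1 array left out (adjusted p 5.2e-06 to 0.0823) and was at 1.53 without LKB1-deficient arrays 1, 4 and 5 (adjusted p = 4.5e-04). LKB1-deficient array 1, at 9.69, was far nearer to the WT arrays at 9.45 to 9.53 than arrays 2 to 5, at 10.98 to 11.07. Erap1, which trims peptides for class I loading, was at -0.39 without overlap (adjusted p = 0.0706), Stat2 at 0.43 (0.226) and Pdia3 at -0.23 (0.352). Tap1, whose gene neighbours Psmb9 and encodes a chain of the peptide transporter, was at 0.26 (adjusted p = 0.369). The list mean was 9.45 to 9.54 on WT arrays, against 9.12, 9.77, 9.71, 9.70 and 9.62 on LKB1-deficient arrays 1 to 5, so array 1 lay on the opposite side of WT from the others. The inducible proteasome subunits Psmb8, Psmb9 and Psmb10 were also lowest on array 1. This was not particular to them, as array 1 was the lowest of its group in 25 of the 47 proteasome genes.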

How the data were processed

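The deposited table holds log2 signals for 41345 probe sets on 10 single-channel arrays. Per the labels' protocols, a few nanograms of total RNA were amplified and biotin-labelled with NuGEN kits. Per the submitters' processing notes, the authors used RMA and Partek 6.6 to make these log2 values, with order and settings not given. Amplification can distort levels, between-array normalization hides a shift common to all transcripts, and no detection calls were used, so dim values cannot be told from background.

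Of the probe sets 23521 named 1 gene, 1814 several and 16010 none. Each gene was represented by its probe set with the highest mean over the arrays (22180 genes). All 49 matched symbols were in the RefSeq gene table. Groups and replicate numbers come from the titles. limma 3.58.1 in R 4.3.3 was fitted over all genes (lmFit, eBayes, 4.36 prior degrees of freedom), Benjamini-Hochberg adjusted, called under 0.05. The number of arrays limits precision, and nothing says whether separate animals stand behind them, so p-values reflect the spread among these arrays alone, which may be technical. In simulated 5 against 5 comparisons of 22180 genes the code called 0% of genes changed by 0.25, 42% by 0.5 and 90% by 1 (log2), with 5 false calls. Each size had 50 genes, and the noise was independent, with the same SD in both groups. On the real arrays the SD was larger in the LKB1-deficient group in 68.8% of all genes and 84.4% of bright genes. The simulated rates need not hold for these arrays.

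Members, lists and alternatives were chosen with earlier results of these data known. Array values are given for called members, the catalytic pairs, activators, Psmf1 and the smallest p of each role, and list genes are named where called or among the smallest p. Psmd7, Psmd12, Psmd14, Nfe2l1, Nfe2l2 and Tap1 were added after their values were seen. Same-numbered replicates showed little shared deviation (r = -0.0788 to 0.102 over genes), and only replicate 2 matched its own number best. Such correlations cannot tell whether same-numbered samples share an animal, which the labels do not state. The replicate number was therefore no block in the main fit.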

Additional observations from a re-analysis of the deposited data

Results flagged for a closer look

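Of 94 groups of 5 arrays (47 genes, WT and LKB1-deficient), 11 held an array set apart from the others, its gap to the nearest exceeding Dixon's 95% limit, where chance gives about 1 group in 20. In 7 of the 11 it was LKB1-deficient array 1 at the lower end: Psmd7 at 6.90, Psmb5 at 9.24, Psmb8 at 9.25, Psmd12 at 8.64, Psmd14 at 7.60, Psma6 at 9.82 and Psme1 at 9.60. The same array had the lowest T cell identity mean (10.44) and the highest B cell mean (6.29). The part of these in its low values was not tested. In WT, array 1 was set apart as the highest for Psma1 (9.26), array 4 as the lowest for Psmd5 (7.01), and array 5 as the lowest for Psmd4 (9.38) and Psme3 (7.31).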

How the results depend on the processing

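The median over members stayed negative in every alternative, from -0.26 in the first code set to -0.13 in the second. No member was called in any of them except Psmb4 with a trended robust prior (1 lower). For the shift of Psmb8 minus Psmb5, leaving out 1 array gave 0.13 to 0.19. Leaving out LKB1-deficient arrays 1, 4 and 5 gave 0.20 (exact test adjusted p = 0.0952), against 0.16 over all arrays. With so few arrays left, an adjusted p under 0.05 would need all pairs at the smallest p the test allows. The lost call therefore does not show a weaker shift. For Psmb9 minus Psmb6 the range with 1 array left out was 0.094 to 0.17, passing without LKB1-deficient array 5 (adjusted p of the exact test 0.0357).

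Over all genes, 52 were called higher and 184 lower. Counts were 284 lower without the dimmest 40% of genes, 363 lower with array medians subtracted, 79 and 307 with a trended robust prior, 135 and 329 with array weights, 0 and 0 in the first code set (10 members at an unadjusted p under 0.05, all lower), 423 and 46 in the second (1 member lower and 1 higher at an unadjusted p under 0.05), 5 and 20 at an adjusted p under 0.01, 154 higher without LKB1-deficient arrays 1, 4 and 5, and 95 higher with the marker means as covariates. With 1 array left out they ran from 8 to 180 higher and from 30 to 340 lower. With the replicate block 14 were higher and 36 lower, and no member was called. The causes were not tested.

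Of 1075 member differences recomputed, 1034 kept sign and side. The sign turned for the following members, some close to 0 and others, such as Psma7 (-0.26 in the fit over all arrays) and Psmb8 (-0.16), not, where "up to" and "down to" give the far end of the fits with 1 array left out. Psma5 was at -0.0077 (medians subtracted), -0.016 (first code set), -0.10 (without the 3 arrays), -0.073 (covariates), -0.014 (without LKB1-deficient 1) and -0.0070 (without WT 5), up to 0.11 (without LKB1-deficient 2). Psma8 was at -0.0097 (first set), -0.14 (3 arrays) and -0.12 (covariates). Psmb3 was at -0.0019 (weights), -0.21 (3 arrays), -0.17 (covariates) and -0.061 (without LKB1-deficient 1). Psmb7 was at 0.0080 (first set), 0.078 (3 arrays) and 0.060 (covariates). Psmb8 was at 0.0029 (second set). Psmb9 was at 0.015 (second set and covariates), 0.020 (3 arrays) and 0.0090 (without LKB1-deficient 1), down to -0.048 (without LKB1-deficient 2). Psmb11 was at 0.070 (first set), 0.0070 (without LKB1-deficient 3) and 0.013 (without WT 5). Psmc1 was at 0.0057 (quantile), 0.069 (second set), 0.0037 (without WT 1) and 0.0047 (without LKB1-deficient 2), down to -0.068 (without WT 5). Psmd9 was at 0.053 (3 arrays) and 0.018 (covariates), Psme4 at 0.015 (covariates), Psma7 at 0.0016 (second set) and Psmc3ip at 0.012 (second set) and 0.013 (without LKB1-deficient 4), down to -0.079 (without WT 5). Psmd10 was at 0.0068 (weights), 0.29 (second set), 0.0013 (3 arrays), 0.0067 (covariates), 0.016 (without WT 1) and 0.034 (without LKB1-deficient 1), down to -0.20 (without WT 5).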
